A study of Mus musculus with 15 samples.

Results

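The genes described here are 38 genes of hypoxia and glycolysis: the enzymes and transporters that take glucose to lactate, the subunits of the hypoxia-inducible factors (HIF), the prolyl hydroxylases that sense oxygen, and further HIF target genes. They were chosen by name from knowledge of the pathway, and each was represented by the probe set that carried its symbol and had the highest mean over all arrays. Of the 38 genes, 35 had a probe set of their own, among 18193 such genes on the array, and 33 could be tested, among 11908 genes. Gpi1 and Eno1 had no probe set listed under these symbols in the annotation used. Bnip3l had only probe sets shared with its pseudogene Bnip3l-ps. Gapdh had 3 control probe sets and 3 that share several symbols, and Pfkfb4, with signals of 13.7 to 92.4, fell below the filter on dim probe sets.

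The cells were mouse glioma cells and untransformed neural cells, profiled on 15 arrays in 5 groups of 3. Tumorspheres, which are floating cultures of tumour cells, had been grown as lines 3447 and 4346 from brain tumours of mice with the genotype S100beta-verbB;p53-/- or, in other animals, S100beta-verbB;p53+/-. They were placed in the brain of hosts of the strain NOD.Cg-Prkdc<scid>Il2rg<tm1Wjl>/SzJ and were cultured again from 3 tumours per line. Flow cytometry then separated side population (SP) cells, which keep little of a DNA dye because ABC transporters pump it out, from non-side population (non-SP) cells. The groups were 3447 SP, 3447 non-SP, 4346 SP, and the same sorted fractions of untransformed neurospheres, called neurosphere SP and neurosphere non-SP. The neurospheres came from 3 mice of the same genotypes, so the verbB oncogene under the S100beta promoter and the loss of 1 or both p53 alleles were shared by the control cells too. Which of the genotypes each sample had, and the ages of the mice, are not given, and one passage of the design text describes the neurosphere samples as coming from injected mice. Each tumour group is 1 tumour line grown in 3 mice, so a difference between the lines, or between a line and the neurospheres, is a difference of those lines. The immunodeficient hosts lack functional T, B and natural killer cells.

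Cells short of oxygen stabilise the alpha subunits of HIF, because prolyl hydroxylases of the Egln family need oxygen to mark them for destruction. The alpha subunit Hif1a or Epas1 then pairs with Arnt and raises transcription of genes for glucose uptake, glycolysis, blood vessel growth, collagen modification and mitochondrial turnover. Much of the control of Hif1a acts on the protein, which an RNA measurement does not see. In glioma the pathway is best known from the poorly perfused tumour core, whereas the cells measured here had been grown in culture before the sort.

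Promoter sequences are shown for 5 genes on which the results turn: P4ha2 and Adm, which differed most between tumour cells and neurospheres, Bnip3 and Egln1, which followed most other members from array to array, and Pfkp, which ran against them in the neurospheres and in 4346 SP but not in line 3447. Each is the 250 bases before the gene's start in RefSeq's annotation of GRCm38.p6, written 5′ to 3′ on the gene's strand. The capitals mark the core letters of the hypoxia response element, searched as ACGTG and GCGTG on both strands, so that CACGT and CACGC are the same letters read on the other strand. ACGTG also overlaps the E-box CACGTG that other factors bind. P4ha2 lies at chr11:54100674-54100923 on the plus strand, Adm at chr7:110627407-110627656 on the plus strand, and Bnip3 at chr7:138909507-138909756 on the minus strand. Egln1 lies at chr8:124949255-124949504 and Pfkp at chr13:6648772-6649021, both on the minus strand.
P4ha2: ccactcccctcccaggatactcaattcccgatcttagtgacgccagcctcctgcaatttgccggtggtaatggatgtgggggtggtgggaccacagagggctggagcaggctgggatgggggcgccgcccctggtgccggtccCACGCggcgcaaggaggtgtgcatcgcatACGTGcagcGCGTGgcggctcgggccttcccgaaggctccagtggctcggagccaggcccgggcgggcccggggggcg
Adm: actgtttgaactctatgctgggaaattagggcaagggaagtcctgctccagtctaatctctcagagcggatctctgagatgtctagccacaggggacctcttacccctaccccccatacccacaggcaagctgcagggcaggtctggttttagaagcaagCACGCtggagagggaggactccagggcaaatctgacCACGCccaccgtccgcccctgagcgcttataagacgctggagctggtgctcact
Bnip3: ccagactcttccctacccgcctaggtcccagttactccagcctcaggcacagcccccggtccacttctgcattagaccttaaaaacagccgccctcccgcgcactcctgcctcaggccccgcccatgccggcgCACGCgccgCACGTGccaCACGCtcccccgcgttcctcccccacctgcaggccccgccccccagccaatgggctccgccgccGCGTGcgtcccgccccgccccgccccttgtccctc
Egln1: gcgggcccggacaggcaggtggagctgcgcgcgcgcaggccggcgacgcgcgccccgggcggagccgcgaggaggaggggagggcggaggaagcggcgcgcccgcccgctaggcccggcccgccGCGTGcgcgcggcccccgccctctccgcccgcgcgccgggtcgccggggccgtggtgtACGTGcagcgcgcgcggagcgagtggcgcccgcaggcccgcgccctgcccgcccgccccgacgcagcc
Pfkp: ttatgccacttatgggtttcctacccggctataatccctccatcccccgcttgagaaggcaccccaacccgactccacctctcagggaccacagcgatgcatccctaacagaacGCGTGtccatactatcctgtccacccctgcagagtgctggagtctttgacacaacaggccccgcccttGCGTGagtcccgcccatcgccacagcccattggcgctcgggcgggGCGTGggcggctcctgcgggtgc
P4ha2 held 3 matches, Adm 2, Egln1 2 and Pfkp 3. Bnip3 held 5 matches in 4 separate stretches, of which 1 is the palindrome CACGTG. Of the 34 members found in the promoter table, 31 (91.2%) had at least 1 match in such a window, against 41.5% of all genes in the table. Among tested genes with a window, it was 28 of 30 members (93.3%), against 62.4% of all. A gene counted if any of its windows matched. By window, 77.3% of those of the tested members matched, against 56.0% of those of all tested genes. A match of so few letters is a description of the sequence and no measure of binding.

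The deposited values are intensities (MAS5 signals), which the authors had scaled per array. The median signal per array ran from 40.0 to 89.3, and the highest belonged to 3447 SP array 3, which also had the lowest rank correlation with its own group (0.855). On 4346 SP array 3 the ratio of the 3′ to the 5′ actin probe set was 5.30, against 2.49 to 3.29 on the other 14 arrays, which is a sign of shorter RNA copies. Members whose call these arrays decide are given with and without them. The 6 markers of the oligodendrocyte lineage summed to 19293 to 31601 on the tumour arrays, against 6994 to 12141 on the neurosphere arrays, with 4 of them (Sox10, Pdgfra, Cspg4 and Mbp) passing as higher in each tumour group. Olig1 and Olig2 went the other way: 2 of the 6 were lower in 3447 SP, 1 in 4346 SP and 0 in 3447 non-SP. The 5 astrocyte markers summed to 1711 to 9930 on the tumour arrays, against 12452 to 28592 on the neurosphere arrays, and 4, 2 and 3 of them passed as lower in 3447 SP, 4346 SP and 3447 non-SP. The 5 neural stem cell markers summed to 10841 to 18280, against 19996 to 29994, with 3, 4 and 2 lower in the same order. Of the 6 endothelial markers 0 passed the filter on dim probe sets, as did 0 of the red blood cell markers and 1 of the 6 markers of microglia and macrophages, Cd68.

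In the SP of line 3447, set against the SP of the neurospheres, 2 of the 33 members rose and 1 fell, while 30 did not pass the test. P4ha2 and Pfkm rose and Adm fell. The test was limma's moderated test on log2(signal + 16) after quantile normalization, with p-values adjusted over all 11908 genes by the Benjamini-Hochberg method and a threshold of 0.05. Among all genes tested, 19.6% passed in this comparison, 10.7% higher and 8.96% lower, and the members' 3 of 33 is a lower share. In the SP of line 4346, 5 members rose and 2 fell, again in comparison with the neurosphere SP, against a background of 24.3% of all genes (14.0% higher and 10.3% lower). P4ha2, Pfkm, Slc16a3, Ldhb and Ankrd37 rose there, while Adm and Pfkfb3 fell. The non-SP of line 3447, set against the neurosphere non-SP, had 4 members higher and 1 lower, with 19.4% of all genes passing (11.2% higher and 8.21% lower). P4ha2, Pfkm, Aldoc and Ndrg1 rose in that comparison and Adm fell. The members' counts of 7 and 5 of 33 are shares near or below those backgrounds. The SP comparisons of the lines share the 3 neurosphere SP arrays. The SP and non-SP comparisons of line 3447 use separate arrays, but their neurosphere arrays come from the same 3 cultures and their tumour arrays from 1 line, so they are not independent: all 3 members that passed in the SP passed the same way in the non-SP, which is 100% of the SP list and 60% of the non-SP list of 5, while for all genes the overlap of 1639 is 70.1% and 71.0%.

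Groups whose arrays did not overlap at all were counted as a second description. In the SP of line 3447, 2 members lay above every neurosphere SP array and 6 lay below, where 18.2% and 17.8% of all genes did. For line 4346 the counts were 9 above and 2 below, with 19.4% and 17.4% of all genes. For the non-SP of line 3447 they were 4 above and 1 below, with 21.3% and 17.5% of all genes. The median log2 difference of the members was 0.14 in 3447 SP, 0.44 in 4346 SP and 0.37 in 3447 non-SP, against medians of -0.03, 0.02 and 0.04 over all genes. Centring each array on its median moved the medians of all genes in these comparisons to -0.18, 0.19 and 0.18, and those of the members to -0.06, 0.65 and 0.58. The sign of the members' median in 3447 SP therefore flips with that scaling, and 19 and 18 of the 33 members lay above the median of all genes under the main scaling and the centred one.

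**Figure D1:**
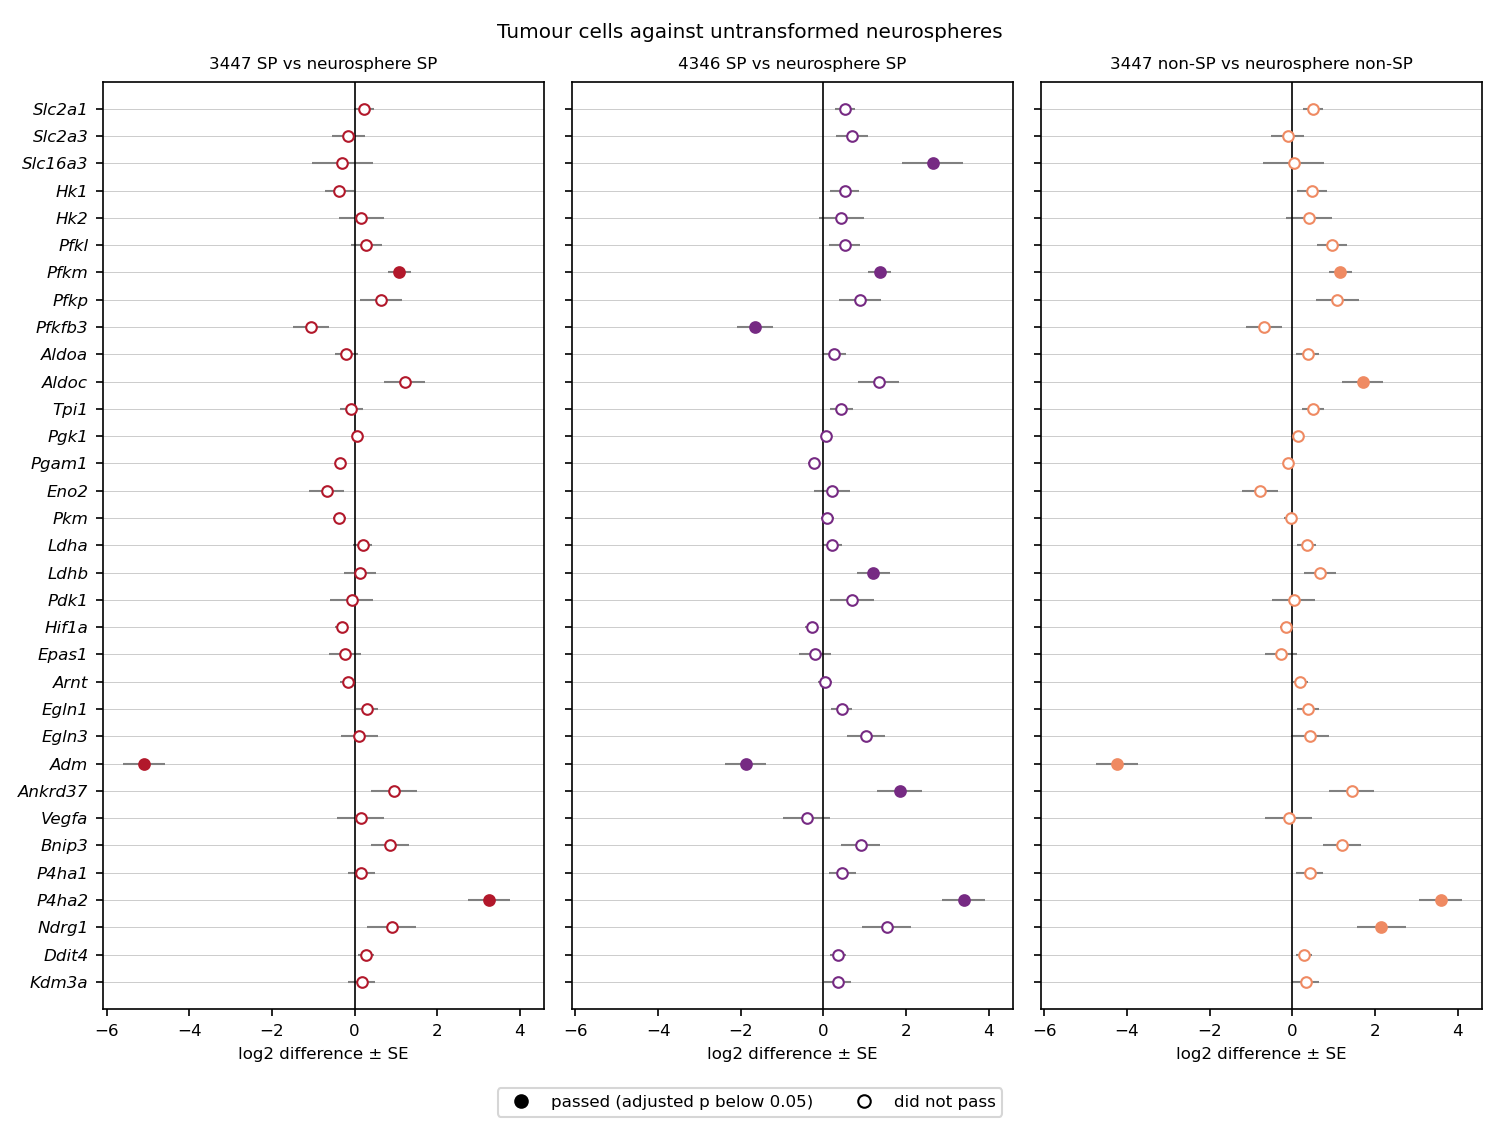
Log2 difference (x axis, in log2 units) of each of the 33 tested members between tumour cells and neurospheres, with tumour cells first, as points with standard errors. Filled points passed the test; P4ha2 (3.25 to 3.59) and Pfkm (1.09 to 1.36) lie to the right and Adm (-5.10 to -1.88) to the left in each of the 3 panels.

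Among the 9 tested HIF target genes outside glycolysis, P4ha2 and Adm stood at opposite ends. P4ha2, which encodes a catalytic subunit of the collagen prolyl hydroxylase of the endoplasmic reticulum, had signals of 427, 581 and 685 in 3447 SP, 721, 354 and 721 in 3447 non-SP and 615, 1014 and 343 in 4346 SP. Neurosphere SP cells had 26.2, 64.3 and 46.8, and neurosphere non-SP cells 2.18, 63.1 and 67.5. Every tumour array was above every neurosphere array. The log2 difference was 3.25 ± 0.52 (SE) for 3447 SP (adjusted p = 0.000305), 3.40 ± 0.52 for 4346 SP (adjusted p = 0.000191) and 3.59 ± 0.52 for 3447 non-SP (adjusted p = 0.000123). The neurosphere signals of P4ha2 ran from 2.18, far below that array's median of 50.8, to 67.5, so the size of the fold depends on the constant added before the logarithm. Without neurosphere non-SP array 1, which had the lowest signal, the difference in 3447 non-SP was 2.90 (adjusted p = 0.000394). With 64 in place of 16, the log2 differences were 2.50, 2.64 and 2.63 in the same order, and with 1 they were 3.66, 3.81 and 4.55. P4ha1, the sister subunit, differed by 0.16 ± 0.33, 0.45 ± 0.33 and 0.42 ± 0.33 in the same comparisons and did not pass in any.

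Adm encodes adrenomedullin, a secreted peptide that widens blood vessels. Its signals were 98.1, 330 and 366 in 3447 SP, 700, 144 and 366 in 3447 non-SP and 3598, 1721 and 1627 in 4346 SP, against 7319, 8354 and 8716 in neurosphere SP and 6538, 5801 and 7409 in neurosphere non-SP. All 9 tumour arrays were below all 6 neurosphere arrays, and the arrays of line 4346 lay between line 3447 and the neurospheres. The log2 difference was -5.10 ± 0.51 for 3447 SP (adjusted p = 3.03e-06), -1.88 ± 0.51 for 4346 SP (adjusted p = 0.0128) and -4.25 ± 0.51 for 3447 non-SP (adjusted p = 1.83e-05). Without 3447 SP array 1, the lowest, the difference in 3447 SP was -4.49 (adjusted p = 1.47e-05). The decrease is 34.3-fold in 3447 SP, 3.69-fold in 4346 SP and 19.0-fold in 3447 non-SP. A further probe set of Adm moved the same way, by -4.97, -2.68 and -3.56. The fall in 4346 SP was -1.69 and no longer passed when 4346 SP array 3 was left out (adjusted p = 0.0521).

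Ankrd37, an ankyrin repeat protein whose gene is a direct HIF target, had 1722, 1727 and 334 in 4346 SP, against 180, 242 and 396 in neurosphere SP. Array 3 of 4346 SP, the array with the high actin ratio, lay within the neurosphere range, so the groups overlapped although the difference of 1.84 ± 0.55 passed (adjusted p = 0.0223). Without 4346 SP array 3 the difference was 2.60 (adjusted p = 0.000928). The call was lost without 4346 SP array 1 or 2 (1.46 each, adjusted p = 0.0915 and 0.0899) and without neurosphere SP array 1 or 2 (1.62 and 1.79, adjusted p = 0.0823 and 0.0596). In 3447 non-SP Ankrd37 had 371 to 1117, against 209 to 276 in neurosphere non-SP, and the difference of 1.43 did not pass. It passed without 4346 SP array 3 (adjusted p = 0.0180), which lies outside that comparison and enters only the shared error. Ndrg1, a stress-induced gene of differentiation, had 5140, 1363 and 2031 in 3447 non-SP, against 199, 483 and 1499 in neurosphere non-SP. These groups overlapped, with a difference of 2.16 ± 0.59 (adjusted p = 0.0170). It did not pass without 3447 non-SP array 1 (1.63, adjusted p = 0.0963) or without neurosphere non-SP array 1 or 2 (1.50 and 2.07, adjusted p = 0.0937 and 0.0521), and was 2.89 without neurosphere non-SP array 3 (adjusted p = 0.00127). In 4346 SP Ndrg1 differed by 1.54 ± 0.59 from the neurosphere SP and did not pass (adjusted p = 0.0712).

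The angiogenic factor Vegfa did not differ detectably between the groups. Its signals were 653, 1683 and 1363 in 3447 SP, 1137, 596 and 866 in 3447 non-SP and 774, 1249 and 463 in 4346 SP, against 737, 721 and 1860 in neurosphere SP and 525, 515 and 2567 in neurosphere non-SP. Each group spanned a wide range, and array 3 of both neurosphere groups was the highest of its own. The log2 difference was 0.15 ± 0.57, -0.40 ± 0.57 and -0.08 ± 0.57 for 3447 SP, 4346 SP and 3447 non-SP. A further, dimmer probe set of Vegfa differed by -0.37, -0.05 and 0.33 in the same order. Bnip3, a receptor for the removal of mitochondria, differed by 0.87 ± 0.46, 0.90 ± 0.46 and 1.20 ± 0.46 and did not pass. Ddit4, an inhibitor of mTOR signalling, and the histone demethylase gene Kdm3a differed by 0.17 to 0.36 in these comparisons and did not pass.

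**Figure D2:**
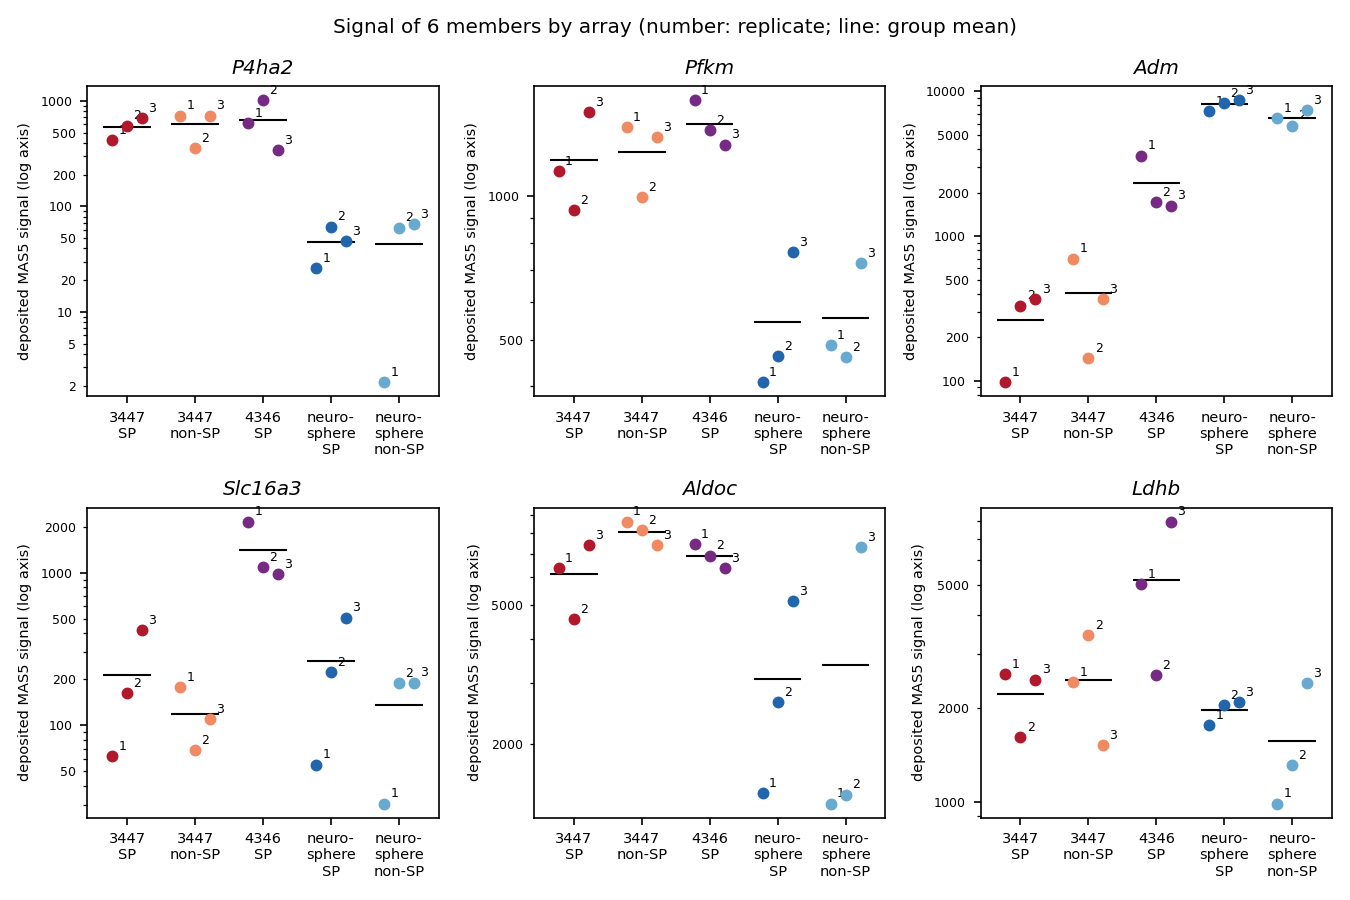
Deposited MAS5 signal (y axis, log scale, arbitrary units) of 6 members on each array; a point is an array with its replicate number and the line is the group mean. P4ha2 and Pfkm are higher and Adm lower on every tumour array than on every neurosphere array, Slc16a3 is high in 4346 SP, and Aldoc on neurosphere array 3 reaches into the tumour range or close to it.

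Among the 19 tested genes of glucose transport, glycolysis and lactate, 1 rose in 3447 SP, 3 rose and 1 fell in 4346 SP, and 2 rose in 3447 non-SP. The shares of all genes were 10.7% higher in 3447 SP, 14.0% higher and 10.3% lower in 4346 SP, and 11.2% higher in 3447 non-SP. Pfkm encodes the muscle-type subunit of phosphofructokinase, the enzyme of the committed step. It had 1131, 937 and 1502 in 3447 SP, 1398, 997 and 1332 in 3447 non-SP and 1594, 1378 and 1286 in 4346 SP, against 408, 463 and 763 in neurosphere SP and 487, 459 and 724 in neurosphere non-SP. All tumour arrays were above all neurosphere arrays. The log2 difference was 1.09 ± 0.28 (adjusted p = 0.0115), 1.36 ± 0.28 (adjusted p = 0.00215) and 1.16 ± 0.28 (adjusted p = 0.00761) for 3447 SP, 4346 SP and 3447 non-SP. The call in 3447 SP was lost without 3447 SP array 3 (0.88, adjusted p = 0.0668) and without neurosphere SP array 1 (0.92, adjusted p = 0.0600). The other subunits did not pass: Pfkl differed by 0.29 ± 0.37, 0.51 ± 0.37 and 0.96 ± 0.37, and Pfkp by 0.64 ± 0.51, 0.88 ± 0.51 and 1.09 ± 0.51.

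Aldoc encodes the brain form of aldolase. Its signals were 6371, 4552 and 7403 in 3447 SP, 8643, 8170 and 7410 in 3447 non-SP and 7438, 6911 and 6375 in 4346 SP, against 1452, 2644 and 5126 in neurosphere SP and 1356, 1438 and 7296 in neurosphere non-SP. Array 3 of each neurosphere group was far above the other 2 of its group. In the SP of line 3447 the groups overlapped. The difference passed in 3447 non-SP (1.71 ± 0.50, adjusted p = 0.0226) and did not pass in 3447 SP (1.22 ± 0.50, adjusted p = 0.100) or 4346 SP (1.34 ± 0.50, adjusted p = 0.0601). The call in 3447 non-SP was lost without any one array of 3447 non-SP (1.67 to 1.78, adjusted p = 0.0526 to 0.0665) and without neurosphere non-SP array 1 or 2 (1.28 and 1.36, adjusted p = 0.118 and 0.103). Without neurosphere non-SP array 3, the high one, the difference was 2.49 (adjusted p = 0.000117). Without neurosphere SP array 3, Aldoc passed in 3447 SP (1.66, adjusted p = 0.0348) and in 4346 SP (1.79, adjusted p = 0.0208). Aldoa, the muscle form, differed by -0.20 ± 0.28, 0.26 ± 0.28 and 0.37 ± 0.28 in 3447 SP, 4346 SP and 3447 non-SP.

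Slc16a3 encodes a lactate exporter of glycolytic cells. It had 2160, 1091 and 974 in 4346 SP, against 55.0, 223 and 506 in neurosphere SP. The groups did not overlap, and the difference was 2.65 ± 0.74 (adjusted p = 0.0162), a 6.26-fold rise. It was lost without 4346 SP array 1 (2.30, adjusted p = 0.0598) and without neurosphere SP array 1 (1.89, adjusted p = 0.0858), and was 3.31 without neurosphere SP array 3 (adjusted p = 0.00575). Line 3447 was unlike line 4346 here, with 62.7, 161 and 419 in 3447 SP and 177, 68.9 and 110 in 3447 non-SP, against 30.6, 188 and 190 in neurosphere non-SP. Both fractions of line 3447 lay within the range of the neurosphere arrays of the same fraction.

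Ldhb, the heart-type subunit of lactate dehydrogenase, had 5017, 2558 and 7994 in 4346 SP, against 1768, 2046 and 2097 in neurosphere SP. All 3 arrays of 4346 SP were higher, with a difference of 1.21 ± 0.39 (adjusted p = 0.0347), and its other 3 probe sets differed by 1.17 to 1.21. The call was lost without 4346 SP array 3 (0.83, adjusted p = 0.163), without 4346 SP array 1 (1.16, adjusted p = 0.0812), and without any one neurosphere SP array (1.13 to 1.26, adjusted p = 0.0599 to 0.0950). Ldha, the muscle-type subunit, differed by 0.21 ± 0.23 in the same comparison. Pfkfb3, which makes the allosteric activator of phosphofructokinase, had 370, 640 and 181 in 4346 SP, against 1314, 1216 and 961 in neurosphere SP. These groups did not overlap, and the difference was -1.66 ± 0.43 (adjusted p = 0.0111). Without 4346 SP array 3, the lowest, it was -1.22 and did not pass (adjusted p = 0.0579). The glucose transporter genes Slc2a1 and Slc2a3, the hexokinase genes Hk1 and Hk2, and Tpi1, Pgk1, Pgam1, Eno2, Pkm and Pdk1 did not pass in any comparison of tumour cells with neurospheres, and their log2 differences ran from -0.79 (Eno2 in 3447 non-SP) to 0.69 (Slc2a3 and Pdk1 in 4346 SP). The probe sets of Pdk1 disagreed in line 3447: further ones ran from -0.48 to 0.73 in 3447 SP and from -0.50 to 1.14 in 3447 non-SP.

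The 5 tested genes of the oxygen sensor and its factor, the HIF subunits and the prolyl hydroxylases, had 0 calls in any of the 7 comparisons without the block of neurosphere cultures described further on, and 1 with it, Egln3 in 4346 SP. Hif1a had 6509, 6730 and 6064 in 3447 SP, 8544, 7068 and 6064 in 3447 non-SP and 7098, 8754 and 5471 in 4346 SP, against 9602, 7442 and 8439 in neurosphere SP and 7779, 6974 and 8598 in neurosphere non-SP. All 3447 SP arrays lay below the neurosphere SP arrays, and the log2 difference was -0.31 ± 0.16 (95% interval -0.65 to 0.03, adjusted p = 0.195). In 4346 SP and 3447 non-SP it was -0.28 and -0.15. Further probe sets of Hif1a past the filter differed by -0.58, -0.50 and -0.37, and by -0.21, -0.53 and -0.60, in 3447 SP, 4346 SP and 3447 non-SP. Epas1, the alternative alpha subunit, had 1251, 681 and 1147 in 3447 SP, 987, 784 and 528 in 3447 non-SP and 689, 990 and 1474 in 4346 SP, against 803, 1410 and 1315 in neurosphere SP and 599, 770 and 1508 in neurosphere non-SP. The groups overlapped, with log2 differences of -0.23, -0.21 and -0.27 (SE 0.38) for 3447 SP, 4346 SP and 3447 non-SP. Arnt, the shared partner, had 2826, 2889 and 2456 in 3447 SP, 2839, 2415 and 2684 in 3447 non-SP and 3343, 3650 and 2778 in 4346 SP, against 3044, 2593 and 3733 in neurosphere SP and 1931, 2460 and 2554 in neurosphere non-SP. Its groups overlapped in each tumour comparison, with differences of -0.17, 0.04 and 0.20 (SE 0.18).

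Egln1, the main prolyl hydroxylase, had 4709, 6188 and 7266 in 3447 SP, 8126, 5805 and 7944 in 3447 non-SP and 7770, 7893 and 5533 in 4346 SP, against 4172, 4511 and 7049 in neurosphere SP and 3982, 4708 and 8343 in neurosphere non-SP. Each comparison overlapped through array 3 of the neurospheres, and the differences were 0.30, 0.44 and 0.38 (SE 0.26). Egln3, a prolyl hydroxylase that HIF itself induces, had 439, 904 and 1090 in 3447 SP, 1146, 483 and 914 in 3447 non-SP and 1596, 1435 and 1302 in 4346 SP, against 364, 760 and 1103 in neurosphere SP and 325, 672 and 886 in neurosphere non-SP. The 4346 SP arrays were the highest of all 15, with a difference of 1.03 ± 0.45 from the neurosphere SP that did not pass (adjusted p = 0.109). It passed with the block of neurosphere cultures (adjusted p = 0.0324), which leaves the spread between cultures out of the error.

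The 3 numbered neurosphere cultures differed in these genes, and the SP and non-SP arrays of a number deviated together (r = 0.52 to 0.62 over all genes). A fit that takes the culture number as a block among the neurosphere arrays removes this spread from the error. In a comparison with tumour cells the 3 cultures are the replicates, so their spread belongs in the error. The adjusted p-values under the block are therefore too small, and its calls are given as a description. The members' calls moved to 7 of 33 for 3447 SP, 14 for 4346 SP and 10 for 3447 non-SP. Of all 11908 genes, 2879, 3521 and 2883 passed under the block in the same order. Aldoc and Bnip3 passed in all 3 comparisons under the block, beside P4ha2, Pfkm and Adm: the adjusted p of Aldoc was 0.000837 for 3447 SP, 0.000325 for 4346 SP and 3.79e-05 for 3447 non-SP, and that of Bnip3 was 0.0149, 0.0106 and 0.00167. Slc2a1 and Pfkp passed as higher in 4346 SP and 3447 non-SP. In 4346 SP, Ndrg1 (adjusted p = 0.0180), Ddit4 (adjusted p = 0.0303) and Egln3 passed as well, and in 3447 non-SP, Pfkl (adjusted p = 0.0296) and Ldha (adjusted p = 0.0232). Leaving out neurosphere non-SP array 3 alone, the array with most members at their highest, raised the calls in 3447 non-SP to 10 of 33. Of all 11908 genes 2078 passed in that fit, a lower share. Singling out that array by the members' own values favours a larger count of members. Bnip3 (1.79, adjusted p = 0.00590), Pfkl (1.24, adjusted p = 0.0398), Tpi1 (0.81, adjusted p = 0.0410), Slc2a1 (0.77, adjusted p = 0.0296) and Ldha (0.64, adjusted p = 0.0397) passed there. With the block, Pgam1 (-0.35) and Pkm (-0.37) also passed as lower in 3447 SP. As shares, the members' counts under the block were below that of all genes in 3447 SP and above it in 4346 SP and 3447 non-SP. The members vary together from array to array, so these are not counts of independent genes. The part in these results of the differences in oligodendrocyte lineage, astrocyte and neural stem cell markers given above was not tested. In such bulk samples, fewer cells of a type and less RNA per cell cannot be told apart.

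Between the SP cells of the tumour lines, 1 member passed, Adm, which was lower in 3447 SP than in 4346 SP by -3.21 ± 0.51 (adjusted p = 0.00321), or 9.28-fold. Without 3447 SP array 1 it was -2.61 (adjusted p = 0.0126). Of all genes 1.65% passed, 0.462% higher and 1.19% lower in 3447 SP. Slc16a3 differed by -2.94 ± 0.74 and did not pass (adjusted p = 0.0586), although the highest 3447 SP array, at 419, was below the lowest 4346 SP array, at 974. Slc16a3 passed without 3447 SP array 3 (-3.60, adjusted p = 0.0411). With the block of neurosphere cultures its difference was again -2.94 (adjusted p = 0.00643). Under that block 3 members passed, Adm, Slc16a3 and Pkm (-0.47, adjusted p = 0.0227), and 372 of all genes. No neurosphere array enters this comparison, so the block only lowers the shared error and adds no evidence on the lines. Groups did not overlap for 5 members, all lower in 3447 SP, and for 0 members the other way, where 10.6% and 9.01% of all genes did. Only 2 of the 33 members had a log2 difference above 0, Vegfa (0.55 ± 0.57) and Pfkfb3 (0.61 ± 0.43), and the median was -0.27, against -0.04 for all genes. The further probe set of Vegfa was at -0.32. Centring the arrays on their medians moved the median of all genes to -0.38 and that of the members to -0.67, again with 2 members above 0.

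Between SP and non-SP cells, 0 of the 33 members passed in line 3447 and 0 in the neurospheres. At an unadjusted p under 0.05 there were 1 and 3 members, and 859 and 428 of all genes. The test itself passed few genes: 1 of 11908 (0.00840%) in line 3447, where 0 (0%) were lower, and 2 (0.0168%) in the neurospheres, 1 (0.00840%) in each direction. That test does not pair the neurosphere fractions by culture, which the fit with the culture number as a block does. With the block, 5 members had an unadjusted p under 0.05 in the neurospheres, the smallest being that of Ndrg1 (0.00674). After adjustment 0 members passed there, and 7 of all genes. Adm had a log2 difference of -0.57 ± 0.51 between 3447 SP and 3447 non-SP and of 0.28 ± 0.51 between neurosphere SP and neurosphere non-SP. P4ha2 differed by -0.04 ± 0.52 and 0.29 ± 0.52, and Hif1a by -0.07 ± 0.16 and 0.09 ± 0.16. For P4ha2 and Hif1a these values lie within 1 standard error of 0.

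Eno2, the neuronal enolase, had the highest difference of a member in line 3447. Its signals were 1510, 2085 and 1508 in 3447 SP, against 1065, 326 and 1421 in 3447 non-SP, and 3437, 2493 and 2295 in neurosphere SP, against 1843, 1112 and 1272 in neurosphere non-SP. SP arrays were above all non-SP arrays in both origins, with differences of 1.08 ± 0.43 and 0.98 ± 0.43 that did not pass (adjusted p = 0.640 and 1). In line 3447, Eno2 was the 1 member with SP arrays all above the non-SP arrays and Pgam1 the 1 member with all below, where 9.07% and 8.44% of all genes did so. In the neurospheres 3 members were all above (Arnt, Eno2 and Kdm3a) and 0 all below, where 4.37% and 3.23% of all genes were.

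Most members had SP differences of the same direction in the neurospheres, none of which passed. The largest was that of Ndrg1, at 1.41, with 2.52, 1.03 and 0.69 in the numbered pairs 1, 2 and 3. In line 3447 the log2 difference of SP from non-SP was above 0 for 12 of 33 members, where 48.3% of all genes were above 0. In the neurospheres it was above 0 for 32 of 33 members, where 57.0% of all genes were, and Egln1 was the exception at -0.11 ± 0.26. That count depends on the probe set taken for each gene. A further probe set past the filter was below 0 for Hk1, Pfkl, Aldoc, Pdk1, Hif1a and Ndrg1 (-0.64 to -0.14). The remaining further probe sets past the filter were above 0, among them that of Egln1 (0.16). The members' medians were -0.07 in line 3447 and 0.23 in the neurospheres, against -0.01 and 0.04 for all genes. Within the numbered neurosphere pairs, 27, 29 and 20 of the 33 members were above 0, where 54.5%, 56.8% and 50.3% of all genes were. The members' medians in pairs 1, 2 and 3 were 0.19, 0.33 and 0.09, so the direction was weakest in pair 3. The members vary together from array to array, as described next, so these are not counts of independent genes. The difference of the SP effect between line 3447 and the neurospheres passed for 0 members and 0 genes (0%), with 0 members and 266 genes at an unadjusted p under 0.05. It was above 0 for 3 members, with a median of -0.32, against 44.7% of all genes and a median of -0.05. With the arrays centred on their medians, that median was -0.69 for the members and -0.36 for all genes.

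**Figure D3:**
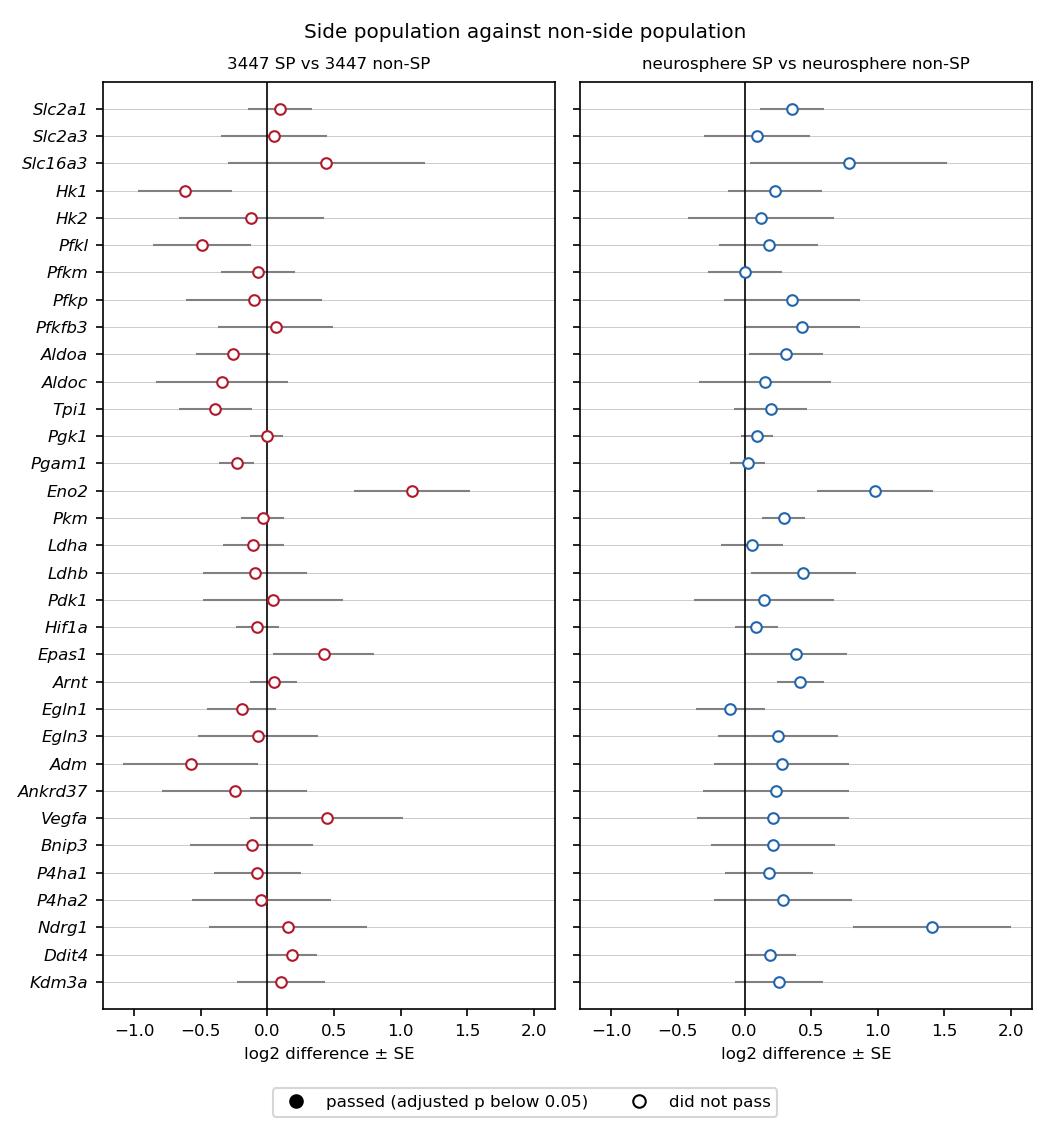
Log2 difference (x axis, in log2 units) of each tested member between SP and non-SP cells in line 3447 (left) and in neurospheres (right), as points with standard errors. All points are open, since 0 members passed in either panel; 32 of 33 neurosphere points lie to the right of 0.

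Most members also varied together within the groups. Bnip3, the mitochondrial receptor, had 4494, 6492 and 7748 in 3447 SP, 8278, 4892 and 8390 in 3447 non-SP and 7844, 6728 and 5313 in 4346 SP, against 1696, 3665 and 6771 in neurosphere SP and 1850, 2096 and 6950 in neurosphere non-SP. Array 3 was high and array 1 low in both neurosphere groups. Pdk1, the kinase that keeps pyruvate out of the citric acid cycle, had 3042, 3337 and 5277 in 3447 SP, 5370, 2662 and 3588 in 3447 non-SP and 8038, 8826 and 3943 in 4346 SP, against 1830, 4109 and 8715 in neurosphere SP and 1992, 2895 and 8020 in neurosphere non-SP. The array with the lowest Pdk1 signal in each of the 5 groups was also the one with the lowest Bnip3 signal. The glucose transporter gene Slc2a1 had 7504, 11511 and 9551 in 3447 SP, 11369, 6547 and 11094 in 3447 non-SP and 12342, 12611 and 11856 in 4346 SP, against 6393, 9019 and 10456 in neurosphere SP and 4570, 6216 and 9189 in neurosphere non-SP. Its lowest array in each group was again the same.

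Expressed as deviations of each array from its group mean, over 15 arrays that leave 10 degrees of freedom, the mean correlation between pairs of the 33 members was 0.436, while over all pairs of the 11908 genes it was 0.006. The points share their arrays and, in the neurospheres, their cultures, so these values are descriptions. The mean was 0.663 among the 9 HIF targets outside glycolysis, 0.372 among the 19 genes of glycolysis and 0.318 among the 5 genes of the oxygen sensor. For lists of other genes it was 0.137 among 30 further HIF regulators and targets, 0.122 among 16 further glycolytic isoforms and transporters, 0.056 among 6 genes of the pentose phosphate pathway and -0.011 among 13 genes of pyruvate entry into mitochondria. It was 0.441 for the members and 0.002 for all genes with the values as deposited, and 0.570 and 0.233 with the arrays centred on their medians.

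Measured against the other members, the highest mean correlations were those of Egln1 (0.64), Tpi1 (0.64), Pfkl (0.61), Pdk1 (0.61), Vegfa (0.61) and Bnip3 (0.61). Bnip3 had r = 0.95 with Pdk1, 0.92 with Egln1 and 0.90 with Slc2a1. Hif1a had a mean correlation of 0.15 and Epas1 of 0.21, well under most of the HIF targets. Eno2 (0.03), Ldhb (0.02) and Pfkfb3 (0.10) stood apart from the rest. Pfkp, the platelet-type phosphofructokinase subunit, was the only member below 0, at -0.37, with r = -0.65 to Bnip3. It had 558, 988 and 982 in 3447 SP, 960, 675 and 1029 in 3447 non-SP and 673, 1012 and 1279 in 4346 SP, against 811, 688 and 223 in neurosphere SP and 464, 791 and 155 in neurosphere non-SP. On neurosphere array 3, where Bnip3, Pdk1 and Vegfa were highest, Pfkp was lowest in both sorted fractions. In both groups of line 3447, Pfkp was lowest on the same array as Bnip3.

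**Figure D4:**
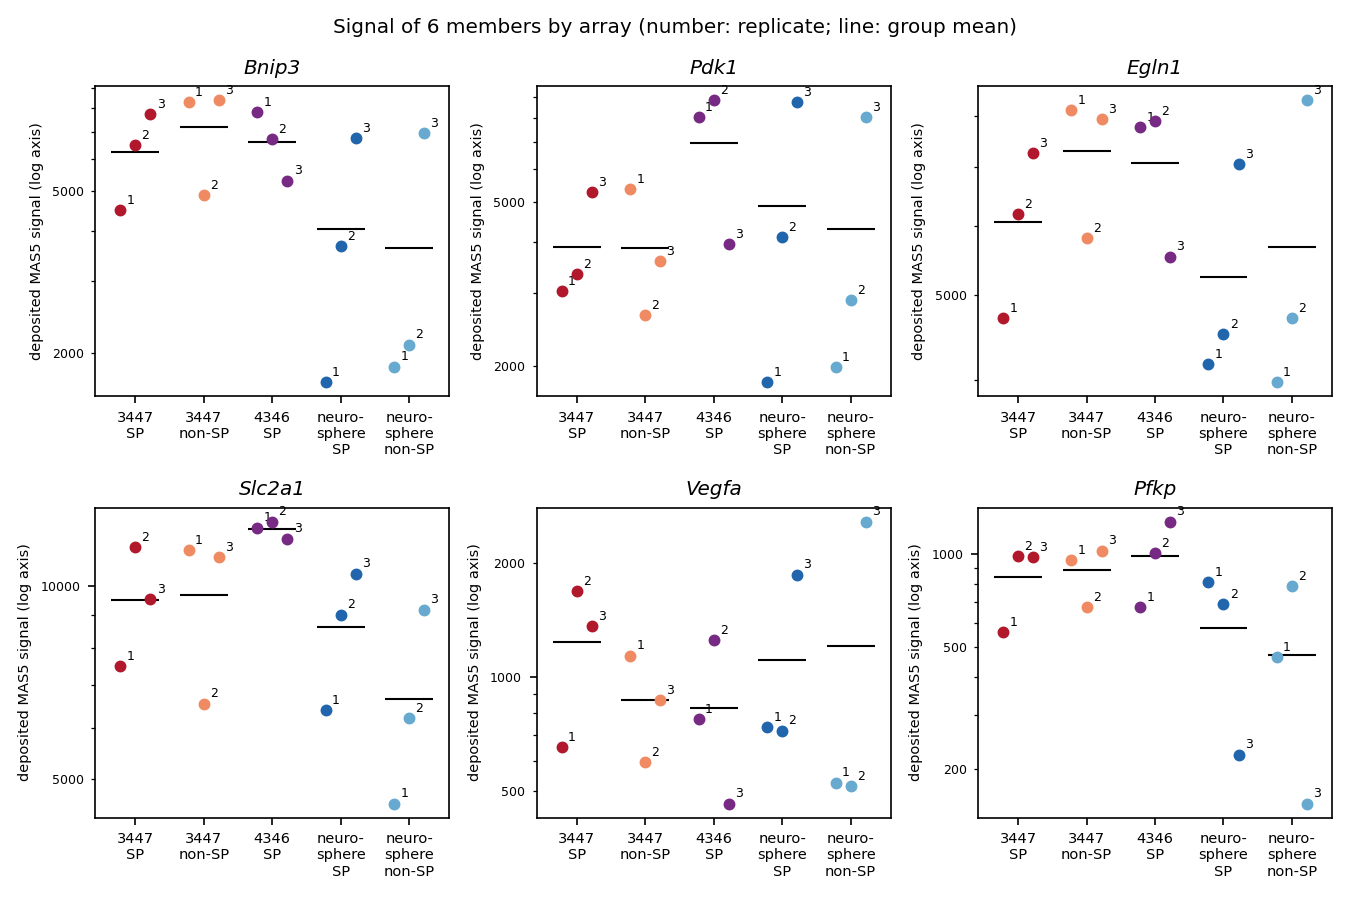
Deposited MAS5 signal (y axis, log scale, arbitrary units) of 5 members that vary together and of Pfkp on each array; a point is an array with its replicate number and the line is the group mean. Array 3 of both neurosphere groups is the highest of its group for Bnip3, Pdk1, Egln1, Slc2a1 and Vegfa and the lowest for Pfkp.

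Counted by array, 29 of the 33 members were highest of their group on neurosphere non-SP array 3, where 38.6% of all genes were, and 26 on neurosphere SP array 3, where 33.2% were. Members were lowest on neurosphere SP array 1 in 21 cases (30.1% of all genes) and on neurosphere non-SP array 1 in 19 (28.4%). In line 3447, array 1 of the SP had 25 members at their lowest (36.8%) and array 3 had 20 at their highest (32.8%). In the non-SP of that line, array 2 had 27 members at their lowest (35.3%) and array 1 had 26 at their highest (32.8%). Array 3 of 4346 SP had 25 members at their lowest (40.9%). Array 3 of 3447 SP is the one with the highest median signal, and array 3 of 4346 SP the one with the highest actin ratio, and the part of these in the pattern was not tested. The neurosphere arrays numbered 3 had medians of 56.7 and 45.5 and actin ratios of 3.20 and 3.07, inside the range of the other arrays.

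**Figure D5:**
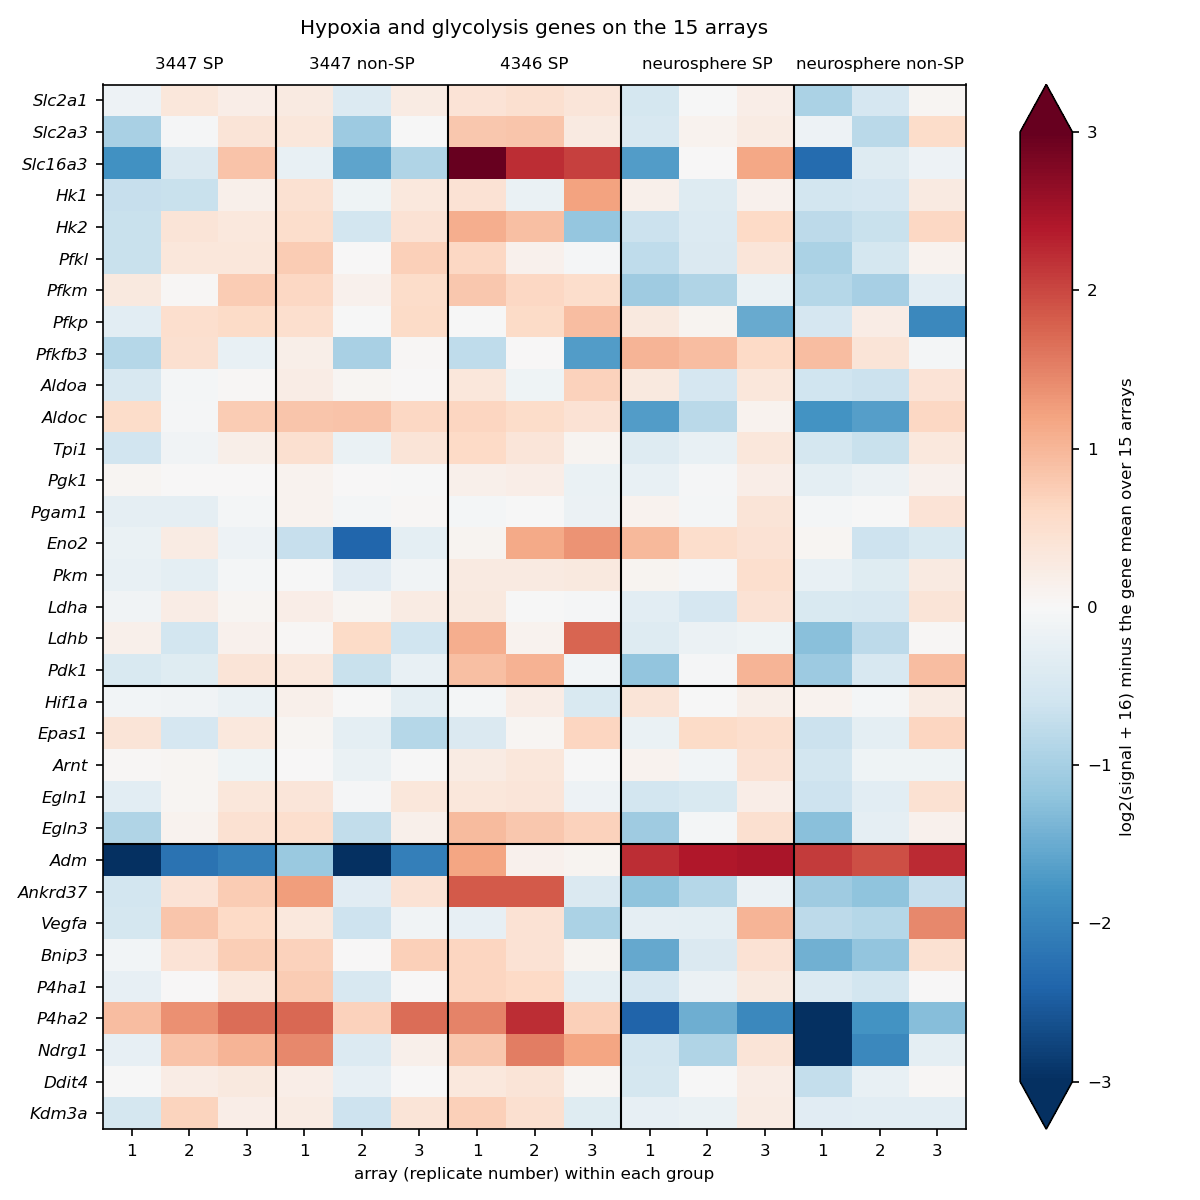
Heat map of the 33 tested members (rows, ordered by role) on the 15 arrays (columns, by group and replicate), coloured by log2(signal + 16) after quantile normalization minus the gene's mean over all arrays. Adm (red in neurospheres) and P4ha2 (red in tumour cells) follow the origin of the cells, while most other rows brighten and fade together within groups, as on neurosphere array 3.

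Further genes of the same pathways were counted from lists of genes that are not members. Of 16 other glycolytic isoforms and transporters, 3 rose in 3447 SP, 4 rose and 1 fell in 4346 SP, and 3 rose and 1 fell in 3447 non-SP, each set against the neurospheres. Counts in these lists read against the 19.6%, 24.3% and 19.4% of all genes that passed in 3447 SP, 4346 SP and 3447 non-SP. Bpgm, which makes a regulator of oxygen binding in red cells, was higher by 1.18, 1.21 and 1.27 in 3447 SP, 4346 SP and 3447 non-SP. The muscle enolase gene Eno3 was higher by 1.58, 2.38 and 2.11, and the glucose transporter gene Slc2a12 by 1.19, 1.50 and 1.94. Mean signals in neurosphere SP and neurosphere non-SP were 53.0 and 43.0 for Eno3 and 76.6 and 42.1 for Slc2a12. The non-SP means lay below the medians of those arrays (45.5 to 68.1), so the size of these rises depends on the added constant. Tigar, which lowers the activator that Pfkfb3 makes, was lower in 3447 non-SP by -0.86.

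Of 30 other HIF regulators and targets, 2 rose and 2 fell in 3447 SP, and 3 rose and 2 fell both in 4346 SP and in 3447 non-SP, which are lower shares than among all genes. Stc1, the secreted hormone stanniocalcin, fell beside Adm: its mean signal was 18.2 in 3447 SP and 219 in 4346 SP, against 820 in neurosphere SP, and the fit passed for both (adjusted p = 0.000222 and 0.0153). In 3447 non-SP it was 14.7, against 604 in neurosphere non-SP (adjusted p = 0.00147). The signals in line 3447 lay below the array medians, so the size of the fall there is not given. Vegfc, a growth factor of lymphatic vessels, also passed as lower in all 3 comparisons, with tumour means of 3.81 to 25.8, below the array medians. The membrane-binding protein gene Anxa2 was higher by 1.10, 0.95 and 1.20. Tmem45a had a mean of 202 in 4346 SP, against 35.5 in neurosphere SP (adjusted p = 0.00189), and of 27.1 in 3447 SP, against that of 4346 SP (adjusted p = 0.00572).

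Of 13 genes of pyruvate entry into mitochondria, 3 rose in 3447 SP, 1 rose and 2 fell in 4346 SP, and 2 rose in 3447 non-SP, with 19.6%, 24.3% and 19.4% of all genes passing. Pdp1, the phosphatase that reactivates pyruvate dehydrogenase, was higher by 1.41, 0.92 and 1.25 in these comparisons. The pyruvate carrier gene Mpc1 was higher in 3447 SP (0.78) and 3447 non-SP (1.10), and the citrate synthase gene Cs was lower in 4346 SP (-0.58). Of 6 genes of the pentose phosphate pathway, 1 rose and 1 fell in 3447 SP, 0 passed in 4346 SP and 1 rose in 3447 non-SP. Taldo1, the transaldolase gene, was higher by 1.18 and 1.51 in 3447 SP and 3447 non-SP. The 4 lists had 0 calls between SP and non-SP cells of line 3447, 0 in the neurospheres and 0 for the difference of these effects.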

How the data were processed

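Gene expression was measured on 15 Affymetrix arrays. The deposited values are intensities, linear MAS5 signals made by the authors with Affymetrix Expression Console (version not stated), per the submitters' processing notes. The mean signal trimmed by 2% at each end was equal on all arrays. RNA was amplified with the Ovation Pico kit, per the labels' protocols. The annotation of the array gave the gene symbols: among 45101 probe sets, 64 controls were dropped, 34945 had 1 symbol, 932 had several and were named for none, and 9160 had none.

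Signals were quantile normalized, since array medians differed by 2.23 times, and log2(signal + 16) was taken. Probe sets above their own array's median on at least 3 arrays were kept (26253), and each gene was represented by the one with the highest mean, which left 11908 genes. A linear model with 5 group means over all 15 arrays (10 residual degrees of freedom) was fitted with limma 3.58.1 in R 4.3.3, with a trend of spread on level and two-sided moderated tests. P-values were adjusted over all genes by the Benjamini-Hochberg method, at a threshold of 0.05, in each of 7 comparisons. Signals are quoted as deposited, and fold changes on the normalized scale, where the added constant lowers the change of dim genes. The number of arrays limits the precision. The code was tested on simulated data.

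Replicate numbers are from the labels. SP and non-SP arrays of the same number correlated in their deviations in the neurospheres (0.577, 0.522 and 0.621), so the numbers pair samples there. In line 3447, arrays of the same number did not (-0.225, -0.249 and -0.120). There, SP array 1 correlated with non-SP array 2 (0.366), SP array 2 with non-SP array 3 (0.296) and SP array 3 with non-SP array 1 (0.217). The remaining pairs of unlike numbers ran from -0.177 to -0.034. Whether arrays of line 3447 are paired in another order was not tested. The tumours of a line are separate animals' tumours of 1 line. The highest Pearson correlation between arrays was 0.991, and 0 pairs held identical values.

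The members and the gene lists were chosen with earlier results of these data known. Every member could be named. Values on every array are given for members past the threshold, the oxygen sensor genes and Vegfa, and also for Eno2, Bnip3, Pdk1, Slc2a1 and Pfkp, which were chosen after their values were seen, as were the 5 promoters. From each list of other genes, at most 4 past the threshold with the smallest p were eligible per comparison. Other alternatives were 15 fits that left out an array each, 12 further settings set down with the tests, and 1 added after seeing the data. Promoter windows came from RefSeq's GRCm38.p6 annotation, in which Slc2a3, Epas1, Ndrg1 and Bnip3l were not matched.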

Additional observations from a re-analysis of the deposited data

Results flagged for a closer look

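Adm differed between the tumour lines under the same sort: its log2 difference between 3447 SP and 4346 SP was -3.21 ± 0.51 (limma, adjusted p = 0.00321). Its signals were 98.1, 330 and 366 in 3447 SP, against 3598, 1721 and 1627 in 4346 SP, lower in 3 of 3 arrays. Over the alternatives the difference ran from -3.75 to -2.61 and the adjusted p from 8.52e-05 to 0.0181. A further probe set of Adm differed by -2.29.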

How the results depend on the processing

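Over all alternatives, 0 called members changed sign. Adm and P4ha2 passed wherever they were tested for 3447 SP, P4ha2 and Pfkm for 4346 SP, Adm, P4ha2 and Pfkm for 3447 non-SP, each set against neurospheres, and Adm between the lines. Requiring a signal above the median on all 15 arrays left P4ha2 untested. For 3447 SP against neurosphere SP, 3 members passed, 7 with a replicate block within the neurospheres, 7 with a block in both origins, 5 with the compared groups alone, and 2 to 5 with an array left out (5 without neurosphere non-SP array 3). Of all 11908 genes 2337 passed there, 2879 and 2536 with the blocks, 2192 with the compared groups alone, and 1693 to 2786 with an array left out. For 4346 SP, 7 passed, 14 and 13 with these blocks, 4 without both arrays that stand apart (3447 SP array 3 and 4346 SP array 3, an alternative chosen after seeing the data), and 4 to 9 with an array left out (4 without 4346 SP array 1 or 3 or neurosphere SP array 1). The counts of all genes were 2891, 3521 and 3085 with the blocks, 2237 without both arrays, and 2237 to 2980 with an array left out. For 3447 non-SP, 5 passed, 8 with array weights, 10 and 9 with the blocks, and 3 to 10 with an array left out (3 without 3447 non-SP array 1 or neurosphere non-SP array 1 or 2, 10 without neurosphere non-SP array 3). All genes moved too, with 2310 passing, 3061 with array weights, 2883 and 2521 with the blocks, and 1631 to 2708 with an array left out. Between 3447 SP and 4346 SP, 1 passed, 3 with arrays centred on their medians, 2 with 64 added, 2 with array weights, 3 and 3 with the blocks, 2 with the compared groups alone, and 1 to 2 with an array left out (2 without 3447 SP array 3, 4346 SP array 2, neurosphere SP array 1 or 3, or neurosphere non-SP array 1). There, 197 of all genes passed, 367 with centred arrays and 372 with the neurosphere block. SP against non-SP and its difference between origins had 0 under every alternative run, pairing by replicate number included. In line 3447, arrays of the same number did not vary alike. Pairing by number therefore cannot show whether a paired SP effect exists in that line or differs between origins. The blocks lower the error by construction where cultures differ. Adjusted p-values under the neurosphere block are therefore too small for tumour cells against neurospheres. Between the lines, that block uses no array of the comparison and only lowers the shared error. The cause of the other shifts was not tested.

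Of the 7 calls in 4346 SP, 5 were lost under some alternative: Slc16a3 (without 4346 SP array 1 or neurosphere SP array 1), Ankrd37, Ldhb, Pfkfb3 (without 4346 SP array 3) and Adm (without 4346 SP array 3, or with array weights). Further calls that rest on few arrays were Aldoc in 3447 non-SP (lost without any one 3447 non-SP array) and Ndrg1 in 3447 non-SP. Pfkm in 3447 SP was lost with arrays centred on their medians and without 3447 SP array 3 or neurosphere SP array 1. Signals near or below the array medians, such as those of P4ha2 in neurospheres, have no detection call here, so their folds are uncertain.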
